A study of Mus musculus with 47 samples.

Results

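Complement is a cascade of blood and tissue proteins that tags particles and cells for removal. Binding of C1q, a hexameric protein built of A, B and C chains, starts the classical pathway, which cleaves C4 and then C3, and deposited C3 fragments are read by phagocytes or lead on to a lytic pore. Soluble and membrane-bound inhibitors hold the cascade back on the body's own cells. In the brain and retina C1q is known as a product of microglia, and complement is known for its role in synapse removal and in degenerative disease of the retina.

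Transcripts of 9 complement genes were followed in mouse retina, 9 of the 57180 genes in the table. They were picked by name as complement components and regulators, with earlier results of these data known. They were matched through gene symbols to the Ensembl identifiers of the table. They comprise the 3 C1q chains C1qa (ENSMUSG00000036887), C1qb (ENSMUSG00000036905) and C1qc (ENSMUSG00000036896), and the components C4b (ENSMUSG00000073418) and C3 (ENSMUSG00000024164). The soluble regulators were Cfi (ENSMUSG00000058952) and Serping1 (ENSMUSG00000023224), and the membrane regulators Cd55 (ENSMUSG00000026399) and Cd59a (ENSMUSG00000032679).

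Messenger RNA was sequenced from retinas of aged mice, 20 months old, and young mice, 6 weeks old. Both groups were C57BL/6, a common inbred laboratory strain, with no genetic change or treatment named in the labels, and lived in alternating light and darkness. At each of 6 zeitgeber times (ZT, hours since lights on; ZT2, ZT6 and ZT10 in the light, ZT14, ZT18 and ZT22 in the dark) retinas of the right eyes of 4 mice per age were taken under dim red light. There were 23 aged libraries, with 3 at ZT18 and 4 at every other time, and 24 young libraries, 4 at each time. The sex of the animals is not given in the labels used here. Values are RPKM, reads per kilobase of exon and per M (mega) reads of the library, so that levels of different genes can be set side by side.

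The deposited values implied totals of 32.5 to 46.5 M reads in aged libraries (median 37 M) and 32 to 55.5 M reads in young libraries (median 37.2 M). The 6 rod transcripts used to check the tissue summed to 13070 to 22230 RPKM in aged libraries and 13340 to 21020 RPKM in young libraries. Liver markers summed to at most 0.179 RPKM in any aged library and 0.133 RPKM in any young one. Genes that reached 0.5 RPKM in 12 or more libraries were tested on log2(RPKM + 0.5), a scale on which differences of low genes are understated. Of the 9 complement genes, 8 passed. Cd55, with no library at 0.5 RPKM, was not tested.

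One aged and one young library stood apart from the others, and both touch the complement genes. The median absolute log2 deviation of all tested genes from their group means was 0.51 in aged ZT6 replicate 3 and 0.64 in young ZT10 replicate 4, against at most 0.24 in any other library. Aged ZT6 replicate 3 held 0.272 RPKM of C1qa, 0.0866 RPKM of C1qb and 1.22 RPKM of C1qc, where the other 3 aged ZT6 libraries held 7.21 to 8.30, 6.48 to 7.38 and 3.29 to 3.80 RPKM. In that library the microglial adaptor transcript Tyrobp was listed at 0 and the lysosomal protease transcript Ctss was at 2.74 RPKM, below its 7.76 to 9.22 RPKM in the other 3. Cx3cr1, the fractalkine receptor of microglia, was at 2.18 RPKM there, the highest of 47 libraries, and Csf1r, the receptor for the growth factor microglia depend on, was at 2.67 RPKM, above its 2.10 to 2.59 RPKM in the other 3. Microglial transcripts therefore did not move in 1 direction in that library.

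Young ZT10 replicate 4 was the lowest library in the summed markers of both microglia (3.31 RPKM) and Müller glia (75.3 RPKM). It held 0.104 RPKM of C1qa, 0.0662 RPKM of C1qb, 0.299 RPKM of C1qc, 0.0190 RPKM of C4b and 0.0241 RPKM of Cx3cr1. Glul, glutamine synthetase of Müller glia, was at 49.8 RPKM, against 377 to 459 RPKM in the other 3 young ZT10 libraries. Cd59a was at 61.4 RPKM, against 50.3 to 52.6 RPKM in those 3, and so above all of them. Deviations in both libraries went with exon length. In aged ZT6 replicate 3 the median log2 deviation was -0.62 for genes of over 1200 and up to 1600 exon bases and 0.13 for those over 6000, and in young ZT10 replicate 4 it was 0.39 for genes of over 800 and up to 1200 exon bases and -0.61 for those over 6000. Each result below is given with these libraries, and again without both where that changes it. Their part in the results beyond those values was not tested.

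Promoter sequences were available from RefSeq (build GRCm38.p6, 250 bases before to 50 bases after the start) for 5 of the 9 genes: C1qb, C1qc, C3, Cd55 and Cd59a. The promoters of C1qb and C1qc are shown because these chains moved together from library to library, and that of Cd59a because it had the clearest age difference. The genes C1qb, C1qc and C1qa stand next to each other in this order on chromosome 4. Capitals mark matches on either strand to GAGGAA, the core bound by PU.1 and other Ets factors, and to the core of the interferon-stimulated response element, GAAA followed by any 2 bases and GAAA again. The sequences run 5′ to 3′ along the gene, with C1qb at chr4:136886151-136886450 (minus strand), C1qc at chr4:136892865-136893164 (minus strand) and Cd59a at chr2:104095551-104095850 (plus strand).
C1qb: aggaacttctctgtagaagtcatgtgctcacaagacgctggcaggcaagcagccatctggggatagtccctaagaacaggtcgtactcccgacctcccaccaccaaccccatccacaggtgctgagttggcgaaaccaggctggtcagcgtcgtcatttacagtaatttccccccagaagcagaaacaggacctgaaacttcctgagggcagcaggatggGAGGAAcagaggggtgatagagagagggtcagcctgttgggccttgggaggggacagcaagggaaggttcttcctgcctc
C1qc: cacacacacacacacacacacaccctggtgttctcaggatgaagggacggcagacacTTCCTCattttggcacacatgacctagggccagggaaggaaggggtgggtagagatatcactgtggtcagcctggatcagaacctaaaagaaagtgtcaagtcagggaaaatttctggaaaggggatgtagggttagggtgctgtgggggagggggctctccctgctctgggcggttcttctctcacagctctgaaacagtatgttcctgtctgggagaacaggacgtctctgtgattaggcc
Cd59a: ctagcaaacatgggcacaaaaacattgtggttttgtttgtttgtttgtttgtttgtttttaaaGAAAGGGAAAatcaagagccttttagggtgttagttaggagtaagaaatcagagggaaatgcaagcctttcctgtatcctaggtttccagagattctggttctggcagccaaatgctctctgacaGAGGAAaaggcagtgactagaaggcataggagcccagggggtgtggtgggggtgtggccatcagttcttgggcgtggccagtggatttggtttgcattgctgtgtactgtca

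GAGGAA was found in 3 of the 5 promoters and in 28.3% of the 32851 promoters of the same length in the table. Its first base lay at -30 in C1qb, -193 in C1qc (opposite strand) and -62 in Cd59a, counted from the gene's start. The response element core was found at -187 in Cd59a alone of the 5, and in 3.44% of all promoters. TTGNNNCAA, paired C/EBP sites, and CACGTG, the E-box bound by clock factors, matched none of the 5, against 5.82% and 7.15% of all promoters. No match to one motif overlapped a match to another. A match describes the letters only.

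The order of levels over all 47 libraries was wide. Median RPKM was 58.8 for Cd59a, 6.32 for C1qa, 6.00 for C1qb, 2.70 for C1qc, 2.46 for Serping1, 1.92 for C4b, 0.573 for Cfi, 0.461 for C3 and 0.120 for Cd55. Below Cd59a the ranges over libraries overlapped between every pair of neighbours in this order. Cd59a, whose lowest library held 37.2 RPKM, lay above every library of every other of these genes. It exceeded 95% of all tested genes in median level, whereas C3 exceeded 5%.

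**Figure D1:**
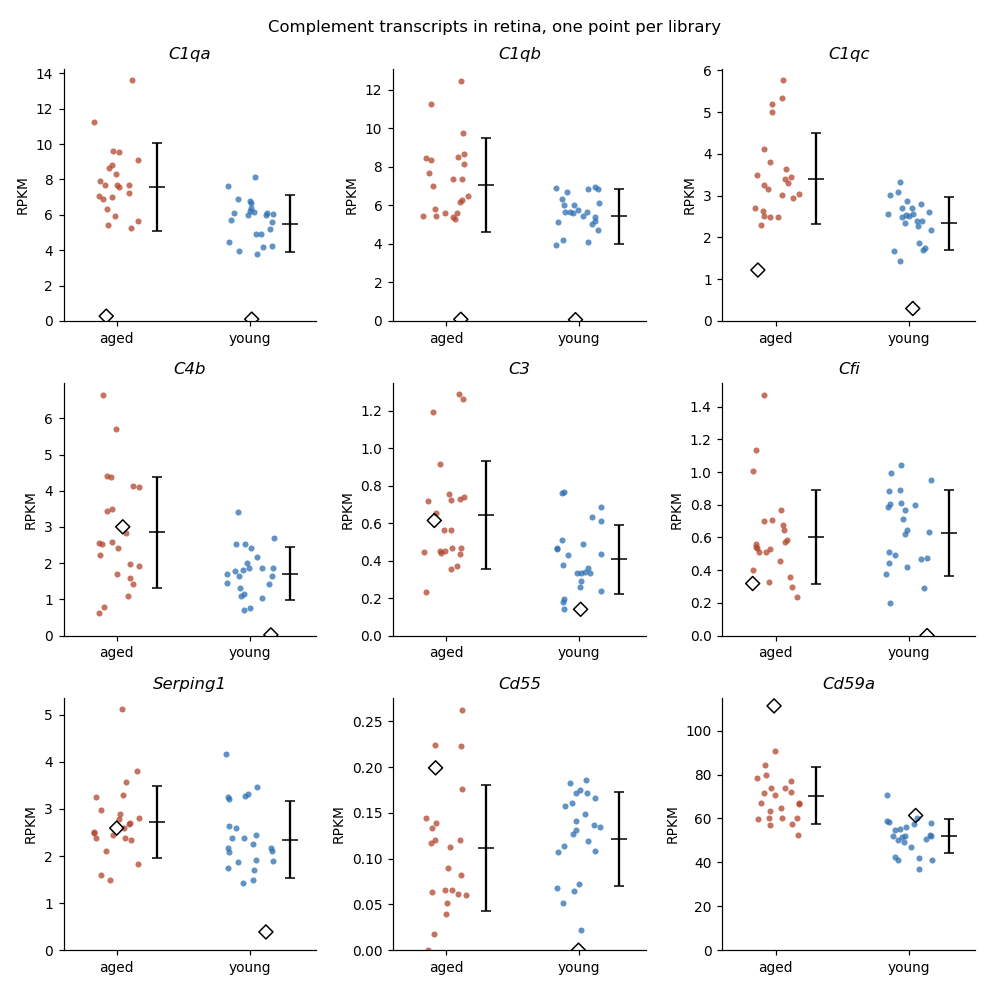
RPKM of the 9 complement transcripts in each aged (red, n = 23) and young (blue, n = 24) retina library, with mean ± SD as bars beside the points. Diamonds mark aged ZT6 replicate 3 and young ZT10 replicate 4, which lie near 0 for C1qa and C1qb, while the aged Cd59a points lie at 52.5 to 111 RPKM and the young ones at 37.2 to 70.7 RPKM.

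Over all times of day, C1qc, C3 and Cd59a rose in aged retinas, and none of the 8 tested genes fell. With an adjusted p under 0.05, 3 of 8 were called higher, where 2.41% of the 15321 tested genes were called higher and 1.83% lower. C3 met the filter on low values mainly through aged libraries, and with no filter its adjusted p was 0.0856 and 2 of the 8 were called. On the log2(RPKM + 0.5) scale, which understates changes of low genes, none of the 3 passed a fold of 1.5, the minimum that the study set, which 0.424% of all tested genes did in this direction. On reads recovered from the RPKM values, without that pseudocount, limma voom put C1qc (0.59) and C3 (0.69) past it. The median log2 difference was 0.38 over the 8 genes and -0.02 over all tested genes. Without the libraries that stood apart, 6 of the 8 were called higher, the 3 C1q chains, C4b, C3 and Cd59a. None of the 8 was called lower, where 7.25% of 15272 tested genes were called higher and 9.33% lower. C3 is counted here under the same filter, and no value without the filter is given for this fit. In whole retina, more cells of a type and more RNA per cell cannot be told apart, and neither can fewer cells and less RNA per cell.

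**Figure D2:**
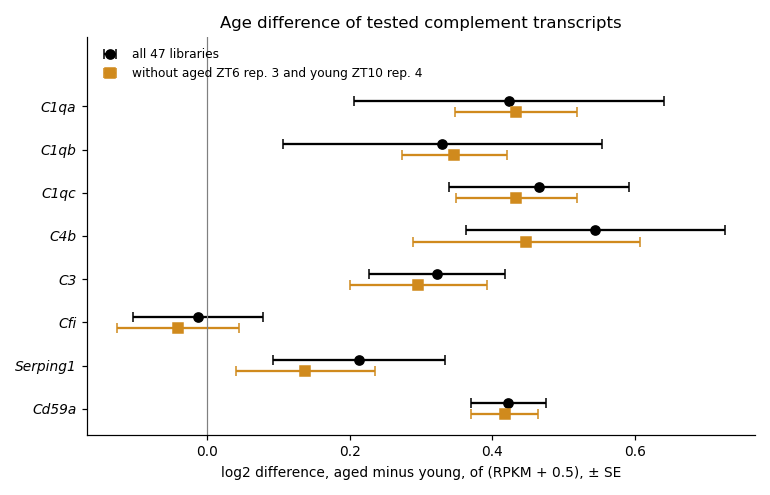
Log2 difference, aged minus young, of RPKM + 0.5 with its SE for the 8 tested complement transcripts, from limma with time as a factor, over all 47 libraries (black) and over 45 (orange). Differences of the C1q chains keep their size and their SE shrinks when both libraries are left out, for C1qa to 0.43 ± 0.09, against 0.42 ± 0.22 over all.

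C1qc, the C chain of C1q, ran from 1.22 to 5.77 RPKM in aged libraries with a median of 3.25, and from 0.299 to 3.33 RPKM in young libraries with a median of 2.50. It averaged 3.40 ± 1.09 RPKM in aged (SD, n = 23) and 2.34 ± 0.643 RPKM in young retinas (SD, n = 24). Of the aged libraries, 19 lay above the young median and 10 above the highest young library, and the ages overlapped. The log2 difference was 0.47 ± 0.13 (SE), with adjusted p = 0.0215 (limma, Benjamini-Hochberg over all tested genes), and aged was higher at all 6 times. It stayed called when any 1 library was left out, with adjusted p between 0.00323 and 0.0405, and was 0.43 ± 0.08 with adjusted p = 0.000321 without both libraries that stood apart.

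C1qa, the A chain, was at 0.272 to 13.6 RPKM in aged libraries (median 7.68) and 0.104 to 8.13 RPKM in young libraries (median 5.99). Means were 7.58 ± 2.48 RPKM in aged (SD, n = 23) and 5.50 ± 1.60 RPKM in young retinas (SD, n = 24). The ages overlapped, and 8 aged libraries lay above the highest young one. The log2 difference of 0.42 ± 0.22 did not pass, with adjusted p = 0.343 in limma. Leaving out aged ZT6 replicate 3 alone gave 0.58 ± 0.16 and adjusted p = 0.0239. Without young ZT10 replicate 4 alone it was 0.28, the lowest with any 1 library left out, and was not called. Leaving out both libraries gave 0.43 ± 0.09 and adjusted p = 0.000369.

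C1qb, the B chain, was at 0.0866 to 12.5 RPKM in aged libraries (median 7.01) and 0.0662 to 6.94 RPKM in young libraries (median 5.65). Its means were 7.08 ± 2.44 RPKM in aged (SD, n = 23) and 5.44 ± 1.44 RPKM in young retinas (SD, n = 24). Here 12 aged libraries lay above every young library, and the others overlapped with them. Its log2 difference was 0.33 ± 0.22 with adjusted p = 0.533 in limma over all libraries, and 0.35 ± 0.07 with adjusted p = 0.000836 without both. With any 1 library left out it was not called. It then ran from 0.18, without young ZT10 replicate 4, to 0.50, without aged ZT6 replicate 3. The 3 chains thus had differences of similar size, and their calls differed with the 2 libraries.

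Microglial markers that are not complement genes were set beside C1q. Of 12 listed markers 10 were tested and 1 rose, Cd68, a lysosomal glycoprotein of phagocytes, at 1.23 ± 0.676 RPKM in aged (SD, n = 23) and 0.720 ± 0.293 RPKM in young (SD, n = 24), a log2 difference of 0.45 ± 0.13 with adjusted p = 0.0448 (limma). Summed over the 12, the markers were at 18.5 to 42.5 RPKM in aged libraries (median 30.6) and 3.31 to 32.6 RPKM in young libraries (median 25.3). Of all tested genes 2.41% were called higher over all libraries and 7.25% without both that stood apart. Without both libraries 4 of the markers were called higher: Cd68, Tyrobp, Ctss and Tmem119, a surface protein of microglia, by 0.22 to 0.47 on the log2 scale. In the same fit Cx3cr1 (0.09 ± 0.06), Csf1r (0.09 ± 0.07) and P2ry12 (0.11 ± 0.07), a purine receptor, did not pass. Whether the C1q differences exceed those of these markers was not tested.

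C4b, the mouse gene for component C4, ran from 0.619 to 6.64 RPKM in aged libraries with a median of 2.55, and from 0.0190 to 3.40 RPKM in young libraries with a median of 1.74. Means were 2.85 ± 1.52 RPKM in aged (SD, n = 23) and 1.70 ± 0.731 RPKM in young retinas (SD, n = 24). The aged libraries were spread more widely than the young, with 8 above the highest young library and the lowest aged library below all but 1 of the young ones. The log2 difference of 0.54 ± 0.18 was the widest of the 8 genes and did not pass, with adjusted p = 0.0858 in limma. It passed when aged ZT2 replicate 3 (0.61 ± 0.18, adjusted p = 0.0344) or aged ZT22 replicate 3 (0.60 ± 0.18, adjusted p = 0.0424) was left out, and without both libraries that stood apart (0.45 ± 0.16, adjusted p = 0.0468). Without young ZT10 replicate 4 alone it was 0.44, the lowest with any 1 library left out, and did not pass. Reads of C4b and its neighbour copy C4a could be split between them, since 34.6% of the 50-base stretches of C4b transcripts also occur in C4a. C4a itself was at 0.191 ± 0.0889 RPKM in aged (SD, n = 23) and 0.210 ± 0.0779 RPKM in young (SD, n = 24).

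C3, the component on which all pathways meet, was a low transcript. It was at 0.233 to 1.29 RPKM in aged libraries (median 0.565) and 0.140 to 0.765 RPKM in young libraries (median 0.370), with medians of 109 recovered reads in aged and 74 in young. Means were 0.645 ± 0.287 RPKM in aged (SD, n = 23) and 0.407 ± 0.183 RPKM in young retinas (SD, n = 24). Of the aged libraries, 21 lay above the young median but only 4 above the highest young library. Aged exceeded young by 0.32 ± 0.10 on the log2 scale with adjusted p = 0.0411 in limma, and was higher at all 6 times.

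The C3 call was close to its threshold. C3 entered the test mainly through aged libraries, with 13 of 23 aged and 6 of 24 young libraries at 0.5 RPKM or more. With no filter on low values its adjusted p was 0.0856. When 1 library was left out it lost its call in 24 of 47 cases, 11 of them aged (adjusted p from 0.0508 to 0.071) and 13 young (0.0502 to 0.064), while the difference itself ran from 0.29 to 0.35. These were aged ZT2 replicates 1 and 2, ZT6 replicates 1 and 2, ZT10 replicates 1 and 2, ZT14 replicates 2 and 4, ZT18 replicates 1 and 3 and ZT22 replicate 2. On the young side they were ZT2 replicates 1, 3 and 4, ZT6 replicates 1 and 2, ZT10 replicate 2, ZT14 replicates 1, 3 and 4, ZT18 replicates 2, 3 and 4 and ZT22 replicate 4. Without both libraries that stood apart the difference was 0.30 ± 0.10 with adjusted p = 0.0297, and on reads recovered from the RPKM values limma voom gave 0.69 ± 0.20 with adjusted p = 0.0343.

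Among the soluble regulators, neither passed the test. Serping1, the inhibitor of the C1 proteases, was at 1.49 to 5.13 RPKM in aged libraries (median 2.60) and 0.387 to 4.18 RPKM in young libraries (median 2.21). The ranges overlapped almost wholly, with 1 aged library above the highest young one, aged ZT10 replicate 2. A log2 difference of 0.21 ± 0.12 was found, with adjusted p = 0.415 in limma, and 0.14 ± 0.10 with adjusted p = 0.332 without both libraries.

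Cfi, factor I, the protease that cleaves deposited C3b and C4b, was at 0.233 to 1.47 RPKM in aged libraries (median 0.540) and 0 to 1.04 RPKM in young libraries (median 0.640). The value listed at 0 belonged to young ZT10 replicate 4, where 3 reads would amount to 0.0243 RPKM. Ages overlapped over nearly their whole range. The log2 difference was -0.01 ± 0.09 with adjusted p = 0.972 in limma, a difference of little size whose sign turned with the pseudocount or scaling.

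The membrane regulators stood at opposite ends of the levels. Cd59a, the protein that blocks assembly of the lytic pore, was at 52.5 to 111 RPKM in aged libraries (median 66.9) and 37.2 to 70.7 RPKM in young libraries (median 52.2). It averaged 70.4 ± 13.01 RPKM in aged (SD, n = 23) and 52.2 ± 7.71 RPKM in young retinas (SD, n = 24). All 23 aged libraries lay above the young median, and 11 lay above the highest young library, young ZT6 replicate 1. This was a log2 difference of 0.42 ± 0.05, a fold of 1.34, with adjusted p = 8.67e-08 (limma, Benjamini-Hochberg). Its SE was the smallest of the 8 genes, on medians of 4559 recovered reads in aged and 3775 in young.

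The Cd59a call held when any 1 library was left out, with differences of 0.40 to 0.44 and adjusted p between 1.46e-08 and 2.58e-07, and without both libraries that stood apart (0.42 ± 0.05, adjusted p = 7.92e-09). Its testis-enriched copy Cd59b was at 0.254 ± 0.0857 RPKM in aged (SD, n = 23) and 0.212 ± 0.0692 RPKM in young (SD, n = 24). The copies share 3.87% of the 50-base stretches of Cd59a transcripts, so a small part of the reads could be split.

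Cd55, decay-accelerating factor, which takes apart the C3 convertases, was at 0 to 0.263 RPKM in aged libraries (median 0.113) and 0 to 0.186 RPKM in young libraries (median 0.133). Its means of 0.112 ± 0.0691 RPKM in aged (SD, n = 23) and 0.122 ± 0.0514 RPKM in young (SD, n = 24) rested on medians of 19 and 26 recovered reads. It was listed at 0 in aged ZT18 replicate 1 and young ZT10 replicate 4, where 3 reads would be worth 0.0166 and 0.0111 RPKM. Of its transcripts' 50-base stretches, 8% also occur in Cd55b, which did not exceed 0.0181 RPKM in any library.

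The ages were next compared at each time. In a fit of the 12 group means 1 of 48 gene and time pairs was called, Cd59a at ZT6, where 0.666% of all tested genes were called higher. At ZT6 it was at 79.7, 77.1, 111 and 84.4 RPKM in the aged libraries and 70.7, 60.1, 55.9 and 52.2 RPKM in the young ones. Every aged library lay above every young one. The share of all tested genes without overlap was not counted, at this or any other time. The log2 difference of Cd59a was 0.55 ± 0.12 with adjusted p = 0.0103 in limma, and 0.43 with adjusted p = 0.0633 without the libraries that stood apart, of which aged ZT6 replicate 3 is the one at 111 RPKM.

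At ZT22 Cd59a was at 60.1, 56.9, 66.9 and 73.9 RPKM in aged and 42.7, 41.2, 42 and 50.5 RPKM in young libraries. Again the ages did not overlap, without a share of all tested genes to set beside it. The log2 difference was 0.54 ± 0.12 with adjusted p = 0.0534 in limma, and adjusted p = 0.00843 without both libraries, when 0.576% of all tested genes were called higher at that time. At ZT14 the libraries were at 60.4, 60.3, 72.0 and 66.7 RPKM in aged and 40.9, 37.2, 54.5 and 55.1 RPKM in young, with adjusted p = 0.110 over all and 0.0244 without both.

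Cd59a of aged and young also did not overlap at ZT2 and ZT18, and overlapped at ZT10. How common such a lack of overlap was among all tested genes was not counted. It was not called at ZT2 or ZT18 (adjusted p = 0.39 and 0.682 in limma), where 0.137% and 0.222% of all tested genes were called higher. At ZT10 the means were 60.9 ± 9.20 RPKM in aged (SD, n = 4) and 54.1 ± 4.94 RPKM in young (SD, n = 4). The difference there was the smallest of the 6 times, 0.16 ± 0.12, and was not called at ZT10, where 0.392% of tested genes were called higher. Whether the age difference itself depended on time was tested by the age by time interaction, for which Cd59a had an adjusted p of 0.838 in limma.

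Over all libraries the C1q chains were farthest apart between ages at ZT10, through young ZT10 replicate 4, and next at ZT14. Without both libraries that stood apart they were farthest apart at ZT14. At ZT14, which neither of the libraries that stood apart belongs to, C1qb was at 6.19, 8.34, 12.5 and 11.3 RPKM in aged and 5.46, 3.94, 4.12 and 6.11 RPKM in young libraries. C1qa was at 5.40, 9.62, 13.6 and 8.79 RPKM in aged and 3.97, 6.08, 4.26 and 6.67 RPKM in young, and C1qc at 2.49, 3.63, 5.77 and 5.20 RPKM in aged and 1.76, 1.86, 2.49 and 2.53 RPKM in young. Aged replicate 3 was highest for each chain and aged replicate 1 lowest of the aged libraries. C1qb alone of the chains had no overlap between ages, for which the share of all tested genes was not counted. Over all libraries none was called, where 0.222% of tested genes were called higher at ZT14. Without both libraries C1qb (0.87, adjusted p = 0.00103) and C1qc (0.80, adjusted p = 0.0357) were called at ZT14 in limma, where 0.773% of genes were, and C1qa (0.74, adjusted p = 0.0585) was not.

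At ZT10 the log2 differences of 1.24 for C1qa, 1.18 for C1qb, 1.00 for C1qc and 1.34 for C4b were not called, and they included young ZT10 replicate 4. Without both libraries they were 0.41, 0.33, 0.52 and 0.78 and were not called either. At ZT18, with 3 aged libraries, they were 0.71 for C1qa, 0.40 for C1qb and 0.49 for C1qc with or without both, also not called. C1qb had no overlap between ages at ZT18, and C1qc had none at ZT10 (3.007 to 5.009 RPKM in aged, 0.2985 to 2.865 RPKM in young). Here too the share of all tested genes without overlap was not counted. C4b at ZT10 was at 5.71, 6.64, 2.55 and 1.71 RPKM in the aged libraries, against 2.42, 1.10, 2.53 and 0.0190 RPKM in the young ones. Its difference there thus rested on 2 high aged libraries and on young ZT10 replicate 4. At ZT6 C1qa and C1qb had negative differences of -0.61 and -0.81, which were 0.24 and 0.10 without both libraries.

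**Figure D3:**
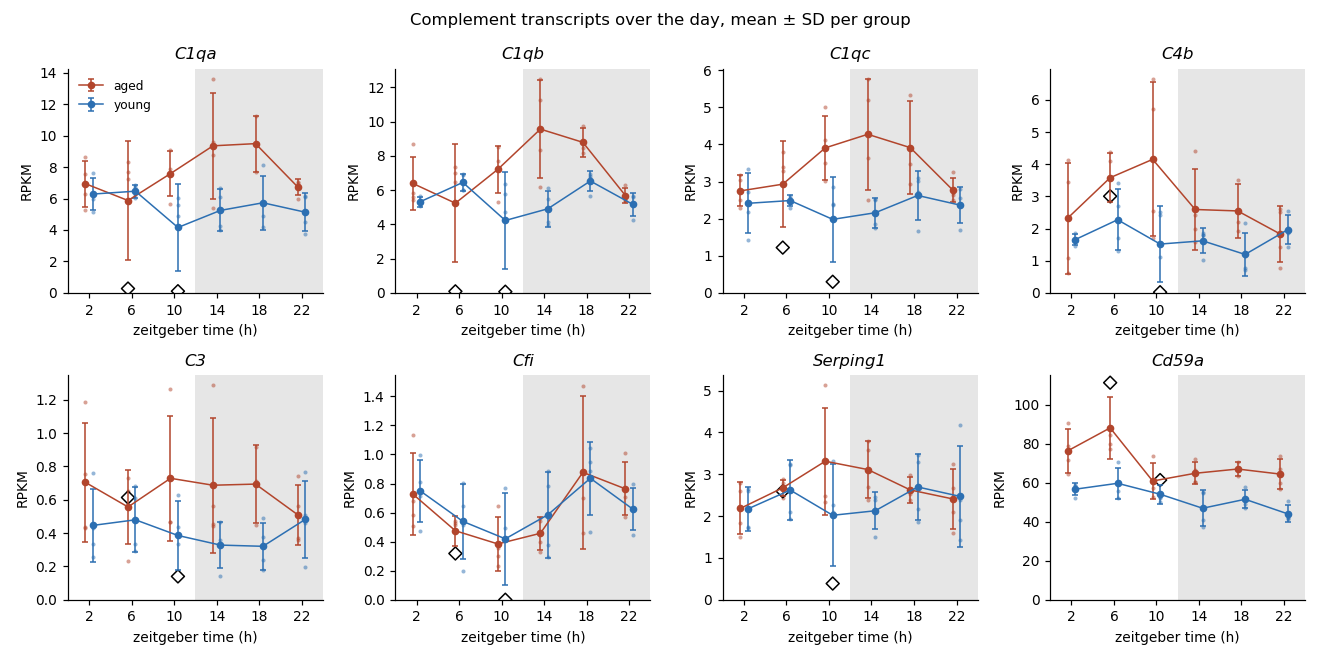
RPKM of the 8 tested complement transcripts by zeitgeber time (h, dark phase shaded) in aged (red) and young (blue) retinas, as mean ± SD of 3 or 4 libraries with single libraries as points. Diamonds mark the libraries that stand apart; aged Cd59a lies above young at every time, with means of 88.1 and 59.7 RPKM at ZT6, and aged and young Cfi are both lowest at ZT10.

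No complement gene had a called age by time interaction, and 0% of all tested genes did at an adjusted p under 0.05 in limma. At an unadjusted p under 0.05 it was 4.80% of all genes, and among the 8 the smallest unadjusted p was that of C1qb (0.145, limma). Rhythms were tested by cosine and sine terms of 24 h in each age. Only Cfi was called, in aged retinas, where 14.4% of all tested genes were called rhythmic, and none in young retinas, where 19.7% were and where Cd59a alone of the 8 had an unadjusted p under 0.05 (limma).

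Cfi in aged retinas averaged 0.727 ± 0.280 RPKM (SD) at ZT2, 0.475 ± 0.105 RPKM at ZT6, 0.384 ± 0.183 RPKM at ZT10, 0.457 ± 0.112 RPKM at ZT14, 0.877 ± 0.528 RPKM at ZT18 (n = 3) and 0.763 ± 0.182 RPKM at ZT22 (n = 4 at the other times). It was lowest from ZT6 to ZT14 and highest at ZT18 and ZT22, with ZT2 close behind. The fitted amplitude was 0.30 ± 0.08 on the log2 scale with a peak at 21.75 ± 1.03 h and adjusted p = 0.0333 in limma. Leaving out aged ZT10 replicate 1 (adjusted p = 0.0587), ZT10 replicate 3 (0.0594), ZT10 replicate 4 (0.0763) or ZT22 replicate 2 (0.0613) ended the call. It was also lost with no filter on low values (adjusted p = 0.0717) and when the 6 times were fitted as a factor in place of the cosine curve.

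In young retinas Cfi averaged 0.749 ± 0.216 RPKM (SD, n = 4 each) at ZT2, 0.539 ± 0.257 RPKM at ZT6, 0.419 ± 0.318 RPKM at ZT10, 0.585 ± 0.295 RPKM at ZT14, 0.836 ± 0.253 RPKM at ZT18 and 0.623 ± 0.144 RPKM at ZT22. The low young mean at ZT10 included replicate 4, listed at 0, beside 0.492, 0.768 and 0.418 RPKM in replicates 1 to 3. The amplitude of Cfi in young was 0.22 ± 0.10 with a peak at 21.3 ± 1.74 h and adjusted p = 0.281 in limma. Without both libraries that stood apart it was 0.14 ± 0.09 with adjusted p = 0.418. The rhythms of Cfi in aged and young were not shown to differ, with an unadjusted p of 0.816 and adjusted p = 0.894 in limma.

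Cd59a came closest to a call in young retinas, with an amplitude of 0.17 ± 0.05, a peak at 6.03 ± 1.22 h and adjusted p = 0.0736 in limma. Without young ZT18 replicate 4 it was called (adjusted p = 0.0276). In aged retinas its amplitude was 0.18 ± 0.06 with a peak at 4.03 ± 1.29 h and adjusted p = 0.116. Highest means fell at ZT6 in both ages.

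Without both libraries, C1qb (amplitude 0.28 ± 0.08, peak at 14.01 h, adjusted p = 0.0306) and C1qc (0.27 ± 0.08, 12.7 h, 0.0346) were called rhythmic in aged retinas beside Cfi (0.29 ± 0.08, 22 h, 0.0271) in limma, where 27.4% of all tested genes were. In young retinas the same fit gave amplitudes of 0.04 ± 0.06 for C1qb and 0.02 ± 0.07 for C1qc, and none of the 8 genes was called, where 34.1% of all were. Leaving out aged ZT6 replicate 3 alone sufficed for C1qb (adjusted p = 0.0306) and C1qc (0.0347), and leaving out aged ZT14 replicate 1 also sufficed for C1qc (0.0382). A difference in rhythm between aged and young was called for none of the 8, with adjusted p = 0.606 for C1qb and C1qc over all libraries and 0.573 and 0.639 without both. The share of genes with such a difference was 0.00653% over all libraries and 0% without both, and 7.75% had one at an unadjusted p under 0.05 over all libraries. None of the 8 genes did so in that fit, and without both libraries C1qa (0.0338) and C1qb (0.0208) had an unadjusted p below that limit in limma, 2 of 8 where 7.86% of all genes did.

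The genes were then compared from library to library, as deviations of log2(RPKM + 0.5) from the mean of each age and time. All points share these libraries with their depth and dissection, so Pearson's r is a description over 47 libraries, or 45 without the pair that stood apart. In aged libraries, deviations of C4b and Cd59a also went with the replicate number, whose part in r was not tested. The C1q chains moved together, with r of 0.95 for C1qa and C1qb, 0.86 for C1qa and C1qc and 0.82 for C1qb and C1qc, and 0.61, 0.68 and 0.62 without the pair. C3, C4b and Serping1 formed a second group, with r of 0.76 for C3 and C4b, 0.74 for C4b and Serping1 and 0.67 for C3 and Serping1, and 0.77, 0.63 and 0.67 without the pair. With C1qa, C1qb and C1qc, r was 0.18 each for C3, 0.47, 0.45 and 0.46 for C4b, and 0.49, 0.45 and 0.54 for Serping1. Without the pair these were 0.14, 0.20 and 0.07 for C3, 0.29, 0.27 and 0.19 for C4b, and 0.30, 0.19 and 0.26 for Serping1. Cd59a ran against the second group, with r of -0.56 for C4b and -0.54 for C3, and -0.56 and -0.59 without the pair.

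**Figure D4:**
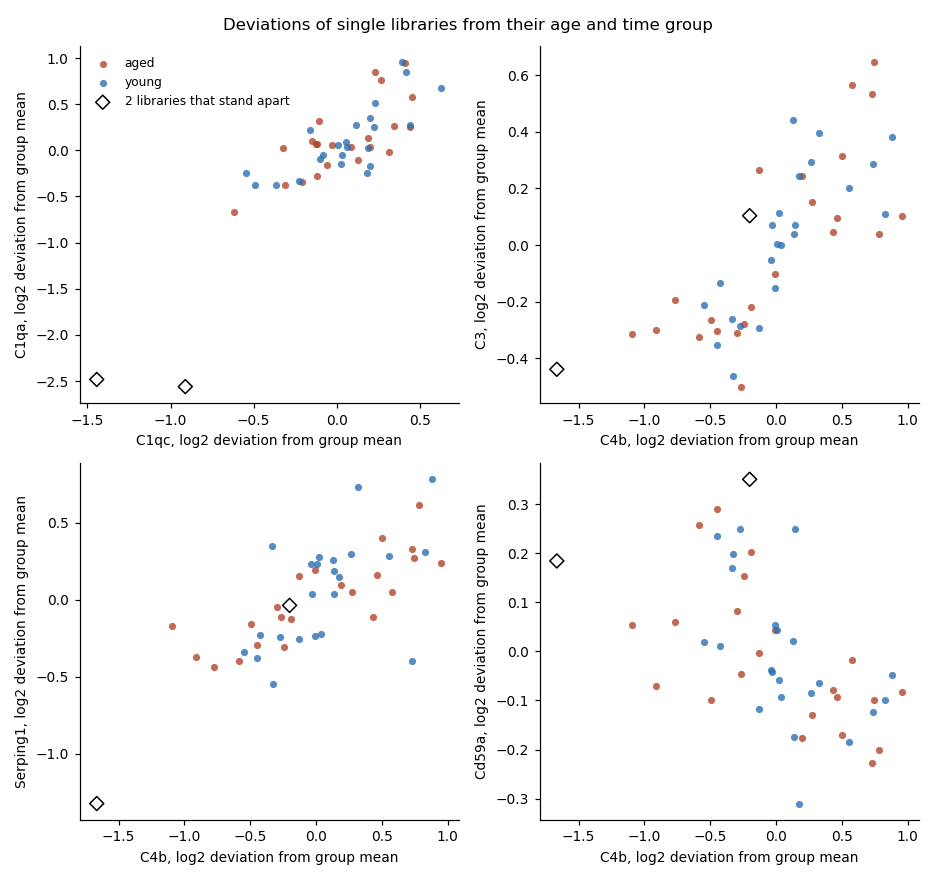
Log2 deviations of single libraries from the mean of their age and time for 4 pairs of complement transcripts, aged in red, young in blue and the 2 libraries that stand apart as diamonds. C1qa follows C1qc (r = 0.86, or 0.68 without the diamonds), C3 and Serping1 follow C4b (r = 0.76 and 0.74), and Cd59a runs against C4b (r = -0.56).

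Marker lists of retinal cells varied along with them. The mean of 10 microglial markers had r of 0.87 with C1qa, 0.83 with C1qb and 0.89 with C1qc, and 0.76, 0.57 and 0.71 without the pair. Serping1 had its highest r with the 7 Müller glia markers (0.77, and 0.67 without the pair), and C4b with the 3 endothelial markers tested (0.77 and 0.66). The 6 rod markers had r of 0.71 with Cd59a and -0.72 with C4b, and 0.77 and -0.65 without the pair. Cd59a also had r of 0.55 with the 5 red blood cell transcripts, -0.62 with the 3 endothelial and -0.60 with the 3 pericyte markers. Without the pair these were 0.51, -0.68 and -0.60. None of the 6 rod markers was called for age, and their sums had medians of 16140 RPKM in aged and 16860 RPKM in young libraries. Pde6a came closest, higher in aged at all 6 times by 0.17 ± 0.06 on the log2 scale. Its adjusted p in limma was 0.107, and 0.0595 without the pair.

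Serping1 and Cd59a differed between the aged libraries at the extremes of C4b. Aged ZT10 replicate 2, highest in C4b at 6.64 RPKM, was also highest in Serping1 at 5.13 RPKM and lowest of the aged libraries in Cd59a at 52.5 RPKM. Aged ZT2 replicate 3, lowest of the aged libraries in C4b at 0.619 RPKM, had Serping1 at 1.83 RPKM and Cd59a at 78.6 RPKM. The part of tissue make-up in the age differences of C4b and Cd59a was not tested.

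Other lists moved with age as well. Of all tested genes 2.41% were called higher over all libraries and 7.25% without both libraries that stood apart. Of 5 red blood cell transcripts 1 was called higher, Alas2, the first enzyme of heme synthesis in red cells, and 4 without both libraries, and the list summed to 12.2 to 823 RPKM in aged libraries (median 91.7) and 14.1 to 294 RPKM in young libraries (median 56.9). Of 9 pigment epithelium markers 7 were tested and 1, the retinoid-binding opsin Rgr, was called higher, and 3 without both libraries, with sums of 7.78 to 186 RPKM in aged (median 29.0) and 6.30 to 99.4 RPKM in young (median 20.5). None of 7 Müller glia, 3 astrocyte, 3 endothelial, 3 pericyte or 5 lens markers tested was called over all libraries. Without both, Slc1a3 of the Müller glia, Slc1a2 of the astrocyte, Lyve1 of the border macrophage and Pdgfra of the fibroblast markers were called lower in aged. In that fit 9.33% of all tested genes were called lower. Neutrophil markers summed to at most 1.17 RPKM in aged and 0.378 RPKM in young libraries. The part of any of these in the complement differences was not tested.

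For each tested gene the genes outside the set with the most similar deviations over 47 libraries were looked up, with r without the pair in parentheses. For C1qa these were Metrn, a secreted factor of glia, at 0.96 (0.75), Apoe, apolipoprotein E, at 0.93 (0.62) and Trnp1 at 0.93 (0.61). For C1qb they were Metrn at 0.94 (0.58), the synaptic vesicle protein Syp at 0.93 (0.19) and the lysosomal protease Ctsl at 0.92 (0.31), and for C1qc Metrn at 0.86 (0.63), Ctss at 0.86 (0.62) and S100a16 at 0.85 (0.70). The likeness of Syp and Ctsl to C1qb was thus largely one of the 2 libraries that stood apart.

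C3 and C4b had the same gene first, Serpina3n, a serine protease inhibitor known from reactive astrocytes, at 0.72 (0.79) for C3 and 0.88 (0.87) for C4b. After it came the matrix proteins Prelp at 0.71 (0.71) and Abi3bp at 0.70 (0.68) for C3, and Fibcd1 at 0.86 (0.81) and the growth factor receptor Fgfr1 at 0.84 (0.79) for C4b. Serping1 was followed most closely by Efemp1, a matrix fibulin, at 0.88 (0.82), Pdyn, the opioid precursor prodynorphin, at 0.86 (0.82) and Gldc, an enzyme of glycine breakdown, at 0.86 (0.78). Cfi was followed by Ucma at 0.73 (0.67), Cnn3 at 0.70 (0.58) and Thrsp at 0.70 (0.58), and Cd59a by Rhot1, a mitochondrial GTPase, at 0.77 (0.73), Ipmk at 0.76 (0.72) and Arl6, a GTPase of cilia, at 0.76 (0.68).

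Ranked over the 45 other libraries, the same gene came first for C1qa, C3, C4b and Cfi, and others came first for C1qb, C1qc, Serping1 and Cd59a. For C1qb these were Psat1, an enzyme of serine synthesis (r = 0.63), Ninj1 (0.62) and the microglial marker Tmem119 (0.62). For Cd59a they were Rcvrn, recoverin of photoreceptors (0.82), Ccdc107 (0.82) and Guk1, guanylate kinase (0.81), which had r of 0.52, 0.37 and 0.41 over all libraries. S100a16 (0.70) led for C1qc, ahead of Uqcrc2 and Pdlim3 (0.63 each), and Pdyn (0.82) for Serping1, ahead of Efemp1 (0.82) and Tmem132b (0.80). After the first gene came Ctss (0.73) and Selenbp1 (0.69) for C1qa, Fgfr1 (0.74) and Ano1 (0.73) for C3, Grn, progranulin (0.84), and Edn2, endothelin 2 (0.82), for C4b, and Ccnd3 (0.63) and Gtf3c5 (0.62) for Cfi.

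The rest of the pathway was mostly low in these retinas. Of 49 other complement genes 8 passed the filter and 41 did not, of which 28 averaged under 0.1 RPKM in both ages and 3 were listed at 0 in every library. None of the 8 was called for age in limma, with 1 at an unadjusted p under 0.05, and their median log2 difference was -0.03.

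The most abundant complement regulator transcripts outside the set did not pass either. Vtn, vitronectin, which keeps the terminal complex from inserting, was at 621 ± 89.9 RPKM in aged (SD, n = 23) and 607 ± 67.1 RPKM in young (SD, n = 24), and Clu, clusterin, with a like role, at 117 ± 29.1 RPKM in aged and 120 ± 27.1 RPKM in young. Cfp, properdin, was at 2.89 ± 0.792 RPKM in aged and 3.38 ± 1.26 RPKM in young. C8g, a chain of the terminal component C8, was called rhythmic in young retinas (adjusted p = 0.00678 in limma) and not in aged (0.158), and the difference in rhythm between ages did not pass (adjusted p = 0.606 in limma).

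Partners of C1q and C4b in initiation were below the filter. C1ra was at 0.203 ± 0.110 RPKM in aged (SD, n = 23) and 0.167 ± 0.0726 RPKM in young (SD, n = 24), and C1s1 at 0.115 ± 0.0749 RPKM in aged and 0.0865 ± 0.0548 RPKM in young, these being the C1 proteases. C2, which pairs with C4 in the C3 convertase, was at 0.130 ± 0.0543 RPKM in aged and 0.132 ± 0.0779 RPKM in young, and Cfb, the alternative pathway protease, at 0.0333 ± 0.0300 RPKM in aged and 0.0324 ± 0.0316 RPKM in young. Among receptors, the C3a receptor C3ar1 was at 0.119 ± 0.0493 RPKM in aged and 0.0936 ± 0.0464 RPKM in young. Itgb2, the shared chain of the complement receptors CR3 and CR4, was at 0.465 ± 0.189 RPKM in aged and 0.317 ± 0.1002 RPKM in young, with 9 of 23 aged and 0 of 24 young libraries at 0.5 RPKM or more, and was not tested. The terminal genes Hc (C5), C6, C7, C8a, C8b and C9 averaged at most 0.0127 RPKM in aged and 0.00913 RPKM in young.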

How the data were processed

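Retinal polyadenylated RNA of 47 samples was sequenced with random hexamer priming, per the labels' protocols. The authors deposited RPKM values, 1 column per library, which are not counts. FastQC 0.23.4, HISAT2 2.2.1, Subread 2.0.6 and the build GRCm39 were used, per the submitters' processing notes, which give no roles, and the annotation is not given in the sources used here. Differential expression was tested by the authors with edgeR, per the series' design text. The table holds 1 more column, which fits no sample label and was left out. Symbols were found for 51884 of 57180 identifiers in GENCODE M21, of an earlier build, which also gave exon lengths.

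The labels give each sample its age and time. On the scale log2(RPKM + 0.5), 15321 genes that reached 0.5 RPKM in 12 or more libraries were fitted with limma (version 3.58.1, R 4.3.3, eBayes using its trend option), and p-values were adjusted over all of them after Benjamini and Hochberg and called under 0.05. The age effect had time as a factor, ages were also contrasted in a fit of 12 group means, and rhythm used 24 h cosine and sine terms. The fits were tested on simulated data. The labels name 4 mice per age and time, so errors are between animals. At the deposited depth, RPKM steps gave reads within 0.01 of a whole number for 93.8% of 34957 genes with a length, and limma voom on these reads called 580 of 13953 genes for age. No replicate pair looked like 1 library deposited again: over 69 pairs, the chi-square averaged 6.94 to 658 a gene.

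The complement genes and all lists were chosen with earlier results of these data known. Named beside them were other complement genes called for age, of which there were none, and the 3 genes most like each tested one (symbols that are no Gm or Rik clone names). Other genes named with their values, such as those of the 2 libraries and of the untested pathway members, were chosen after their values were seen, and a few list members are not reported here by name. Other settings varied the pseudocount, filter, scaling, block, variance moderation, threshold and rhythm test, removed each library in turn, and, chosen after seeing the data, left out both libraries that stood apart or used voom. Sequences are RefSeq's, build GRCm38.p6.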

Additional observations from a re-analysis of the deposited data

Results flagged for a closer look

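In groups of 4 libraries, 99 combinations of gene, age and time were screened for a library far from the other 3, and 8 were found. Chance alone gives about 1 in 20. Of the 8, 3 belong to aged ZT6 replicate 3, at 0.272 RPKM of C1qa (others 7.21 to 8.30), 0.0866 RPKM of C1qb (6.48 to 7.38) and 0.318 RPKM of Cfi (0.512 to 0.540). The others lie in 5 different libraries. Aged ZT2 replicate 1 had 8.68 RPKM of C1qb (others 5.44 to 5.83), aged ZT14 replicate 2 had 1.29 RPKM of C3 (0.444 to 0.565), and aged ZT22 replicate 1 had 5.96 RPKM of C1qa (6.87 to 7.04). Young ZT14 replicate 3 had 1.03 RPKM of C4b (others 1.79 to 1.85), and young ZT22 replicate 4 had 50.5 RPKM of Cd59a (41.2 to 42.7).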

How the results depend on the processing

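Counts below are of complement genes, or of gene and time pairs for the comparison by time. An adjusted p under 0.01 left 1 gene higher with age, 0 pairs by time and 0 rhythmic in aged, and one under 0.1 gave 2 pairs, 2 rhythmic in aged and 1 in young. A pseudocount of 0.1 gave 2 pairs. With no filter 0 genes were rhythmic in aged and 1 other complement gene was higher, Itgax, a receptor chain at 0.0480 RPKM in aged and 0.0160 RPKM in young (0.08 ± 0.02, adjusted p = 0.0254 in limma over 37323 genes). At least 1 RPKM in 24 libraries, which drops C3 and Cfi from the test, gave 0 rhythmic in aged, as did the 6 times as a factor. Voom on recovered reads put 2 genes past the fold of 1.5, C1qc (0.59) and C3 (0.69), a scale without the pseudocount. Leaving out both libraries that stood apart gave 6 higher, 4 pairs and 3 rhythmic in aged, as reported. Quantile normalization called C4b (0.57, adjusted p = 0.0164 in limma). Median-ratio scaling and quantile normalization each moved the median of all genes by 0.01.

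The main fits treated aged and young samples as unpaired. Same-numbered aged and young libraries of a time had correlations of -0.49 to 0.43, and 10 of 23 exceeded 0.1. Between libraries of different groups r averaged 0.03 for the same number and -0.01 for other numbers. Such values cannot settle whether the replicate numbers pair samples. Within aged retinas, C4b deviations were mostly positive in replicates 1 and 2 and negative in 3 and 4, with exceptions at ZT14 and ZT18. At ZT2 they were 0.73, 0.95, -1.09 and -0.59 in replicates 1 to 4, and those of Cd59a -0.23, -0.08, 0.05 and 0.26. Whether same-numbered libraries of different times share a batch was not tested. With the number as a replicate block, 3 pairs by time and 2 genes rhythmic in aged (Cfi and Serping1) were called, and 3 were higher with age as before. Leaving out 1 library at a time gave 2 to 4 higher, 0 to 1 past the fold, 1 to 2 pairs by time, 0 to 3 rhythmic in aged and 0 to 1 in young, with 0 lower. Low reads limit C3, Cfi and Cd55 most.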
